A study of Mus musculus with 2 samples.

Results

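Classical monocytes among brain cells sorted as CD11b high CD45 low were picked out of 2 single-cell libraries by a rule on their RNA. Members were chosen by the levels of 14 genes in each barcode. Barcodes were kept if they had 500 genes or more and no more than 10% of UMIs from mitochondrial genes, and a kept barcode was a member if it held UMIs of at least 4 of 8 genes, namely Ly6c2, Ccr2, Plac8, Chil3, F13a1, Vcan, Ms4a4c and Ifitm6. S100a8 plus S100a9 had to stay below 1% of its UMIs, and H2-Aa, H2-Ab1, H2-Eb1 and Cd74 together below 0.5%. The rule found 95 members among 5127 kept barcodes and 5696 barcodes in all. These genes chose the members, so their levels are given below as a description.

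The study compared microglia at day 3 of repopulation in the brain of C57BL/6 mice that were Hk2 fl/fl, with both hexokinase 2 alleles flanked by loxP sites, or Hk2 cKO, in which Cx3cr1CreER, a tamoxifen-dependent Cre, acts on the same floxed alleles. Cre is there driven from the locus of the fractalkine receptor, so it acts in microglia and in other cells that use that locus. The protocol gives 100 µg tamoxifen into the peritoneum on each of 2 days, soon after birth (postnatal day 1-2) unless stated otherwise. Each genotype is 1 library of the 10x 3′ v3 kit; the labels used here give neither how many animals were pooled, nor the age at sorting, nor how microglia were depleted, nor whether fl/fl animals got tamoxifen, nor which exons are floxed. With 1 sample per genotype no test between genotypes is possible, and every interval below covers counting error only.

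Monocytes arise in the bone marrow and circulate in the blood. Classical monocytes carry much Ly6C and the receptor CCR2, which draws them towards CCL2 into inflamed tissue, where they can become macrophages. Nonclassical monocytes carry little Ly6C, depend on NR4A1 and patrol the vessel wall. Microglia are the brain's own macrophages and do not come from blood monocytes, and a CD45 low gate is used to keep blood-derived cells out.

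The rule kept 67 of 2826 fl/fl barcodes, 2.37% (95% exact binomial interval 1.84% to 3.00%), and 28 of 2301 cKO barcodes, 1.22% (0.810% to 1.75%). The CD45 low gate sets both shares, so they are shares of sorted cells and say nothing of the monocytes in the brain. Members had a median of 8146 UMIs in fl/fl and 9797.5 in cKO. All 8 genes were found in 20 fl/fl and 9 cKO members, and 7 genes in 23 and 9. Just inside its limit were 11 fl/fl and 3 cKO members with 4 genes. Just outside were 21 and 26 barcodes with 3 genes. Of those outside, 16 and 23 held UMIs of at least 2 microglial markers. The limit on neutrophil genes fell in a gap. The highest S100a8 plus S100a9 share in a member was 0.185% in fl/fl and 0.0130% in cKO. The lowest among barcodes removed by that limit was 3.41% and 1.62%. For the class II genes the highest share in a member was 0.450% and 0.0722%, and the lowest among those removed was 0.580% and 1.56%. That left a gap in cKO, while in fl/fl barcodes lay close to the limit on both sides. When each barcode was thinned to 3000 UMIs, 54 of 64 fl/fl and 20 of 26 cKO members still had 4 of the genes. The count of 2 barcode sequences that occur in both libraries included 0 members.

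Before the results, one property of the members has to be given. UMIs of 6 genes known as microglial markers (P2ry12, Tmem119, Siglech, Fcrls, Gpr34 and Sall1) split the members into 2 kinds. At most 1 of these markers was found in 45 fl/fl and 22 cKO members, called low-microglial members here, and 33 and 18 of them held none. The other 22 fl/fl and 6 cKO members held 2 or more, and 16 and 4 of those held 5 or 6. The latter were deeper, with a median of 19715.5 UMIs in fl/fl and 25551 in cKO against 6980 and 9568.5 in low-microglial members, so that they carried 62.9% and 51.1% of all members' UMIs. A list of 12 microglial markers summed to 9563 CPM (UMIs scaled to a total of 1000000) in fl/fl members with 2 or more, and the cKO ones held 8097 CPM. The same sum was 13404 and 13712 CPM in microglia and 320 and 326 CPM in low-microglial members. The mitochondrial gene mt-Nd3 (chrM:9459-9806) and Gm28438, an annotated pseudogene on chr1:24612775-24613119, divided the cells in another way. UMIs of both genes occurred in 7 of the 22 fl/fl members with 2 or more markers and in 0 of the 45 low-microglial ones. Doublets were not removed, and whether such a barcode held more than 1 cell was not tested. Comparisons between the genotypes are therefore given for the low-microglial members, with the values of all members beside several of them.

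**Figure D1:**
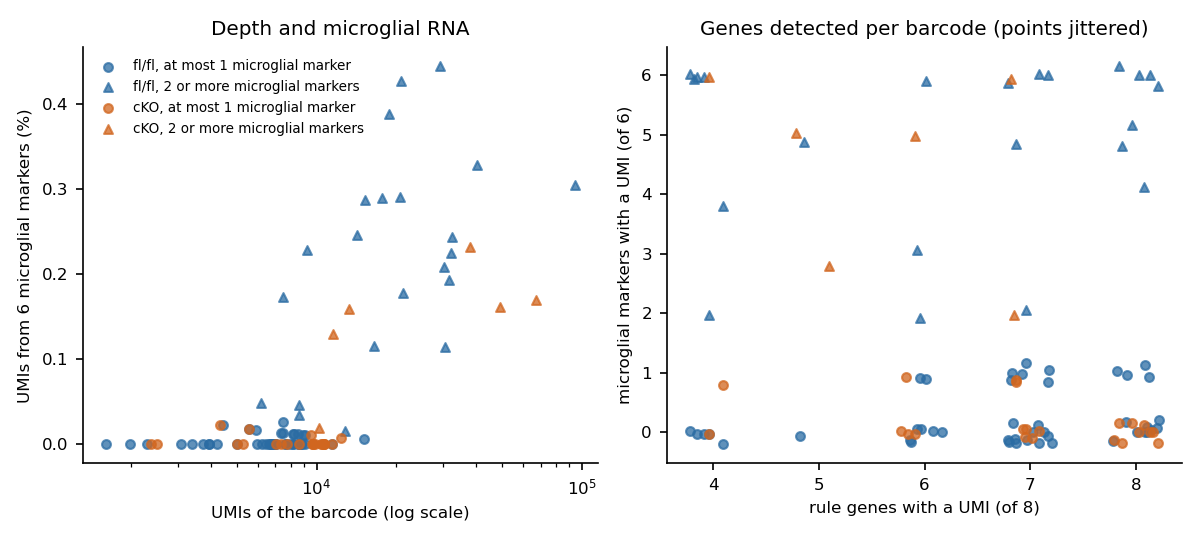
Each point is 1 of the 95 members (fl/fl blue, cKO orange; circles, at most 1 of 6 microglial markers; triangles, 2 or more). On the left, the share of UMIs from the 6 markers is plotted against the UMIs of the barcode on a log axis, and the triangles reach 94058 UMIs while the circles end at 15130; on the right, the number of microglial markers is plotted against the number of rule genes, with points jittered, and barcodes with 6 markers occur at 4 to 8 rule genes.

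The members were compared with microglia over genes that the rule did not use. Of 16 other genes known from classical monocytes, 15 had at least 20 UMIs in the members of each library, and Ly6i had too few. In all members all 15 were at least 2-fold higher than in microglia of the same library, in both libraries, where 9.17% of 2759 genes in fl/fl and 11.4% in cKO were that much higher. The median log2 ratio over microglia was 4.78 in fl/fl and 5.65 in cKO, against -0.0043 and 0.05 over all genes. In low-microglial members it was 5.80 and 6.55, where 20.8% of 1338 genes in fl/fl and 24.0% in cKO were at least 2-fold higher. Of the 12 microglial markers, 8 were measured in all members, and all 8 were lower than in microglia in both libraries, 5 of them at least 2-fold. Over all genes 2.36% in fl/fl and 4.89% in cKO were that much lower, and 6.20% and 5.46% in low-microglial members. The cells were picked by their RNA, so these ratios only describe them. The comparison is with microglia, so it cannot part classical from nonclassical monocytes. Some of these genes also do not part monocytes from neutrophils. In fl/fl barcodes thinned to 3000 UMIs, Hp was found in 93.9% of neutrophils and 92.9% of low-microglial members, and Gsr in 72.7% and 73.8%. Others did differ: Fn1 was found in 1.52% and 83.3%, and Ms4a6c in 7.58% and 95.2%. By barcode, the same 15 genes and Ly6i held 4830 to 13527 CPM in the 45 fl/fl and 4407 to 14704 CPM in the 22 cKO low-microglial members. In members with 2 or more microglial markers they held 304 to 12146 and 417 to 10263 CPM. Of these, 3 barcodes, 2 fl/fl and 1 cKO, held 304, 319 and 417 CPM, where microglia held 314 and 335 CPM, and the next lowest held 1266 CPM. All 3 had 4 rule genes, at 243, 53.2 and 119 CPM, beside 7165 to 11812 CPM of microglial markers, so by these genes the label does not hold for them; they were singled out after their values were seen.

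**Figure D2:**
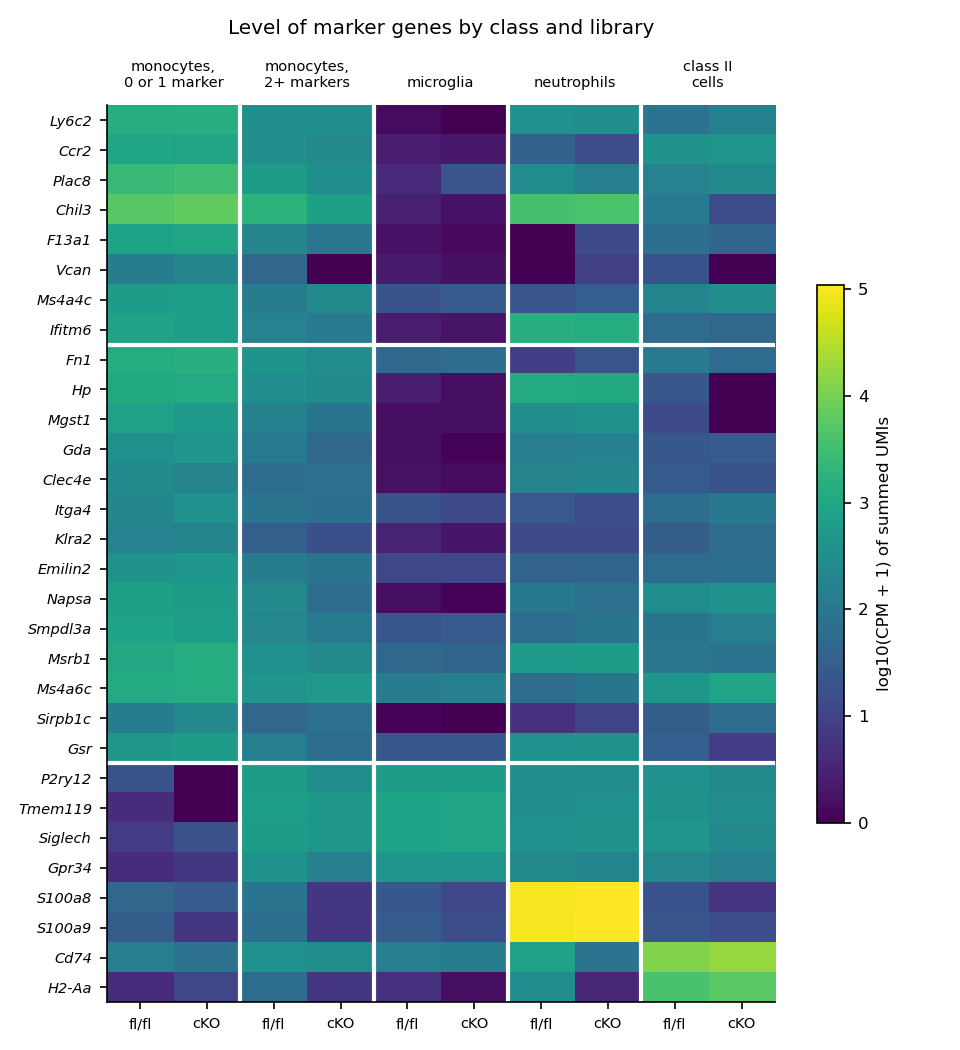
Summed level of each gene as log10(CPM + 1), by class of barcode and library; white lines part the 8 rule genes, 14 other classical monocyte genes and markers of other cells. The 14 genes in the middle block are brighter in both kinds of monocyte barcode than in microglia, and the microglial markers below are dark in the 45 and 22 low-microglial members.

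Lysozyme 2 (Lyz2), a bactericidal enzyme of phagocytes, was the most abundant gene named here. In low-microglial members its level was 40506 CPM (fl/fl) and 39841 CPM (cKO), against 501 and 477 CPM in microglia. Single barcodes ranged from 16228 to 63906 CPM in fl/fl, with a median of 41517, and from 11011 to 62817 CPM in cKO, with a median of 36665. All 45 and 22 barcodes lay above the microglial mean of their library, and the ranges of the genotypes overlapped.

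Among surface proteins and receptors, Ly6c2 (chr15:75108158-75111970), which encodes the Ly6C antigen that defines the classical subset, stood at 1395 and 1443 CPM. Ccr2 (chr9:124101950-124113557), the CCL2 receptor, stood at 921 and 884 CPM and was found in 43 of 45 fl/fl and 21 of 22 cKO barcodes. Itga4, an integrin subunit of the VLA-4 receptor, stood at 203 and 359 CPM. Class II barcodes held Ccr2 at 379 and 424 CPM, and neutrophils held it at 35.6 and 15.3 CPM. Here and below, microglial RNA was not removed from the sums of these 2 classes. The microglial marker P2ry12 stood at 300 and 290 CPM in neutrophils and at 356 and 232 CPM in class II barcodes. It stood at 619 and 618 CPM in microglia and at 19.6 and 0 CPM in low-microglial members. How far this lowers other genes in the 2 classes was not tested.

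Among secreted and matrix proteins, Chil3 (chr3:106147554-106167564), a chitinase-like secreted protein, stood at 5351 and 6523 CPM, and at 1.75 and 0.768 CPM in microglia. It was uneven among members: 7 of 45 fl/fl and 6 of 22 cKO barcodes held 0 UMIs of it, and the highest held 168 and 173 UMIs. Neutrophils held it at 3662 and 4048 CPM, so Chil3 did not part monocytes from them. F13a1 (chr13:36867178-37050244), the catalytic subunit of coagulation factor XIII, stood at 830 and 857 CPM. Fibronectin (Fn1) stood at 1343 and 1448 CPM, haptoglobin (Hp) at 1147 and 1183 CPM, and the matrix proteoglycan Vcan at 131 and 193 CPM. In neutrophils F13a1 held 0 and 16 UMIs, and Fn1 7 and 25. Hp was about as high in neutrophils, at 1205 and 1160 CPM, so it did not part monocytes from them either.

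By the fixed ranking of genes over microglia in both libraries, the 15 highest were Chil3, Ly6c2, Napsa, F13a1, Hp, I830127L07Rik, Ccr2, Mgst1, Ifitm6, Gda, Emb, Slpi, F10, Itgb7 and Thbs1. Their ratios in low-microglial members ran from 7.36 to 10.93 (log2) in fl/fl and from 7.59 to 11.85 in cKO. Chil3, Ly6c2, F13a1, Ccr2 and Ifitm6 are rule genes, whose place the rule fixes in part. The ranking is over microglia alone. In fl/fl, neutrophils held Hp, Ifitm6, I830127L07Rik and Slpi at 1205, 1450, 518 and 574 CPM. Low-microglial fl/fl members held them at 1147, 794, 438 and 382 CPM. In cKO only Ifitm6 was higher in neutrophils, at 1343 against 680 CPM. The other genes of the 15 were lower in neutrophils in both libraries, in sums from which microglial RNA was not removed. F13a1, F10 and Thbs1 take part in clotting or in platelet adhesion, and Mgst1 is a glutathione transferase of membranes. I830127L07Rik is a transcribed pseudogene near Ly6c2, at chr15:75131377-75135128, and stood at 438 and 608 CPM. Of the 50-base words in Ly6c2 transcripts, 13.9% also occur in Ly6c1 and 0.110% in the pseudogene, so counts of Ly6c2 and Ly6c1 may be partly shared. Ly6c1, which brain endothelium uses, held 1 UMI in fl/fl and 0 in cKO low-microglial members.

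The promoters of Ly6c2 and Mgst1 are printed because both genes are among these 15 and hold words that match factors of the monocyte lineage. PU.1 (Spi1) and the C/EBP factors direct myeloid development. Spi1 stood at 555 and 392 CPM and Cebpb at 2842 and 3184 CPM in low-microglial members. The words searched on both strands were GAGGAAGT for PU.1 and TTGCNNAA for C/EBP, in the 250 bases before each RefSeq start site (build GRCm38.p6). Of the 24 rule and other classical genes, 17 matched an entry. GAGGAAGT stood before 1 of the 17 genes, Ly6c2, and before 2.79% of all 27025 genes. TTGCNNAA stood before 5 of the 17, namely Clec4e, Gda, Klra2, Mgst1 and Plac8, and before 10.8% of all genes. Gda is also among the 15 and is not printed. RefSeq gives 2 start sites for Ly6c2 and 2 for Mgst1, and the sequence before the first entry of each is printed. There the Ly6c2 word starts 108 bases before the start site on the gene's own strand, and the Mgst1 word starts 83 bases before it on the opposite strand. Before the second entry, Ly6c2 has the word at 142 and again at 8 bases, and Mgst1 has no match. Capitals mark the matches, which are a description and no evidence of binding; the 2 words do not overlap in either sequence. The Ly6c2 sequence is chr15:75111972-75112221 on the minus strand and the Mgst1 sequence is chr6:138140277-138140526 on the plus strand.
Ly6c2: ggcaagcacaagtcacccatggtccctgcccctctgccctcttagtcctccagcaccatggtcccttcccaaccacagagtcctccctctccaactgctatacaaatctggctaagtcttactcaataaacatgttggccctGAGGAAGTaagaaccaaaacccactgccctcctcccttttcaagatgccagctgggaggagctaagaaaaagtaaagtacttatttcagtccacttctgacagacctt
Mgst1: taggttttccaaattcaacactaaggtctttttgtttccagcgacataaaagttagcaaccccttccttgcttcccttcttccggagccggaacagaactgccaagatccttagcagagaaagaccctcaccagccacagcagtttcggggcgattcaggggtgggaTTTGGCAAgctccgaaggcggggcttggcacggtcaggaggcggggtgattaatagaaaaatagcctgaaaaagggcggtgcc

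Interferon-induced membrane proteins and S100 proteins made up another large share. Ifitm3, which blocks viral entry, stood at 4717 and 5307 CPM. S100a4 stood at 3564 and 3273 CPM, S100a6 at 3940 and 3416 CPM, galectin 3 (Lgals3) at 3342 and 2985 CPM and Crip1 at 3606 and 2775 CPM. The 17 S100, annexin and galectin genes had a combined level of 24058 (fl/fl) and 22063 CPM (cKO) in low-microglial members; in microglia it was 2603 and 2367 CPM. In all members, 16 of these 17 genes were higher than in microglia in both libraries and 12 of 17 at least 2-fold. S100a8 and S100a9 are not among them, since the rule limits both.

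Markers of other cells were summed next. The limits of the rule and the split by microglial markers fix the level of S100a8, S100a9, the class II genes and the 6 microglial markers, so the lists are given without them. The other 10 neutrophil genes held 203 (fl/fl) and 326 CPM (cKO) in low-microglial members, where neutrophils held 64215 and 69361 CPM, with Ly6g, Mmp9, Ltf and Cxcr2 at 0 in both libraries. The other 8 dendritic cell genes held 52.3 and 22.1 CPM, where class II cells held 408 and 295 CPM, with Zbtb46, Xcr1, Clec9a and Ccr7 at 0 in both. The border macrophage list of 8 summed to 29.4 and 11.1 CPM with Cd163, Lyve1, Cbr2 and Folr2 at 0 in both. Mpo, Elane, Ms4a3, Kit and Myb, which mark progenitors in the marrow, were at 0 UMIs in both libraries. Prtn3, a granule protease of young monocytes and neutrophils, held 26 UMIs in 14 of 45 fl/fl barcodes and 7 UMIs in 6 of 22 cKO barcodes.

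Among low-microglial members, a set of 4 went against the label in part. Nonclassical genes (a list of 12) summed to 5604 to 12996 CPM in 2 fl/fl and 2 cKO low-microglial members, and the other 63 held at most 2175 CPM with a median of 449 CPM. The 4 held UMIs of 8 to 10 of the 12 genes and the others of at most 5. All 4 had exactly 4 of the 8 rule genes, and 7 low-microglial members had that few. The line between them was drawn after their values were seen. Nr4a1, Ace, Cd300e and Itgal are on the list that drew it, so their higher levels in the 4 only describe them. Nr4a1, the factor that the nonclassical subset depends on, held 41 UMIs in the 4 barcodes, which is 2161 CPM, against 233 CPM in the other 63. Ace, the angiotensin-converting enzyme, held 19 UMIs in the 4 and 4 UMIs in the other 63. Cd300e, an activating receptor, held 12 UMIs in the 4 and 0 in the 63. Integrin Itgal stood at 1476 CPM in the 4 and 94.01 CPM in the 63. F13a1, Vcan and Fn1 held 0 UMIs in the 4 barcodes, and 409, 75 and 673 UMIs in the 63. Ly6c2 and Chil3 held 1 UMI each in the 4 barcodes together. Plac8, Ifitm6 and Ms4a4c were found in all 4, Plac8 at 2161 and Ifitm6 at 1002 CPM. The sum of the classical genes outside the rule did not set the 4 apart. It was 10443 and 8325 CPM in the 2 fl/fl barcodes and 6225 and 10108 CPM in the 2 cKO ones. Its median in low-microglial members was 9492 CPM (fl/fl) and 9832 CPM (cKO). Of these genes, Napsa stood at 1371 CPM in the 4 and 662 CPM in the 63, and Hp at 791 and 1175 CPM. By the nonclassical list and by F13a1, Vcan and Fn1 the 4 barcodes are nonclassical-like, but not by that sum.

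**Figure D3:**
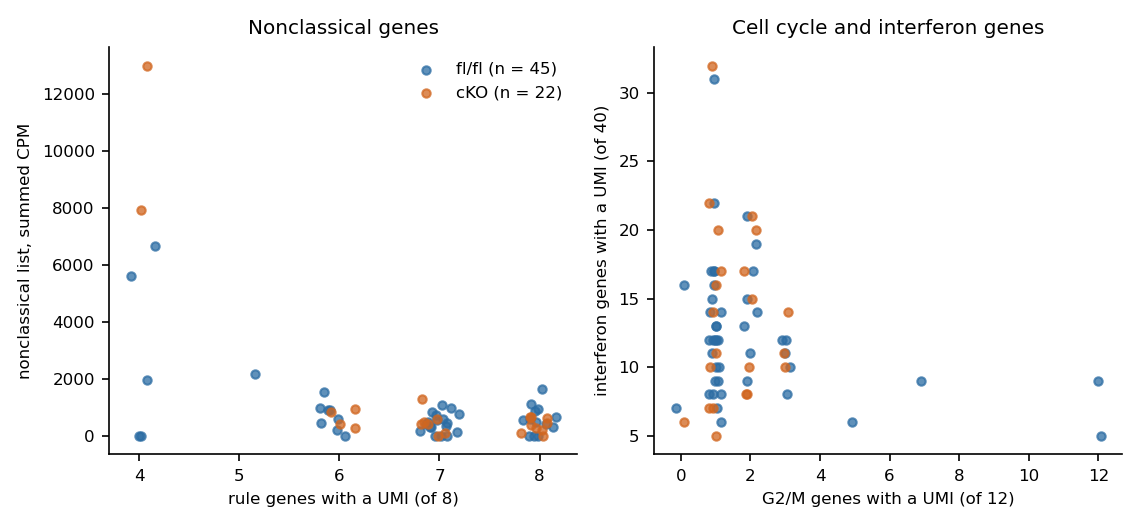
Each point is 1 of the 67 low-microglial members (fl/fl blue, cKO orange; jittered along the x axis). On the left, the summed CPM of 12 nonclassical genes is plotted against the number of rule genes, and 4 barcodes with 4 rule genes lie above 5000 CPM; on the right, the number of interferon genes is plotted against the number of G2/M genes, with 1 barcode of each library above 30 interferon genes and 4 fl/fl barcodes at 5 or more G2/M genes.

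Apolipoprotein E (Apoe), a lipid carrier that macrophages make, varied widely among members. Per barcode it ran from 0 to 108 UMIs in fl/fl, with a median of 4 and 17 of 45 barcodes at 0. In cKO it ran from 0 to 138 UMIs, with a median of 13.5 and 4 of 22 at 0. Its level over all of them was 2649 and 2880 CPM, a log2 ratio of 0.12 (-0.04 to 0.28). In all members Apoe stood at 1587 and 3895 CPM, a log2 ratio of 1.29 (1.19 to 1.40), and was called higher. The 4 nonclassical-like barcodes held 12440 CPM of it and the other 63 held 2342 CPM. Across the 60 low-microglial members with at least 5 rule genes, Apoe and Chil3 CPM had a Spearman rho of -0.33, being -0.36 over 40 fl/fl and -0.29 over 20 cKO barcodes. Apoe and the barcode's UMIs had a rho of -0.09, and Chil3 and the UMIs one of 0.31. These are descriptions across cells of 1 library each. C1qa, a complement gene of tissue macrophages, was found in 10 of 45 and 6 of 22 barcodes with at most 3 UMIs.

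Genes of the cell cycle were found in a few barcodes. Of 12 G2/M genes, 4 of 45 fl/fl low-microglial members held 5 or more, 8.89% (2.48% to 21.2%), and 2 of these held all 12. In cKO 0 of 22 did, which allows up to 13.6% by 3 counts and up to 15.4% by the exact interval, and the highest number was 3. At 3 or more G2/M genes the shares were 9 of 45 and 3 of 22, and at 3 or more of 12 S phase genes 4 of 45, 8.89%, and 4 of 22, 18.2% (5.19% to 40.3%). The intervals of the shares overlap. Birc5, which encodes survivin and acts in chromosome segregation, held 32 UMIs in fl/fl, all in 3 of those 4 barcodes, and 0 in cKO; the exact upper end of the log2 ratio was -2.27. Top2a (topoisomerase 2) held 18 UMIs and 1 UMI, and Mki67 held 13 and 0. Stathmin (Stmn1), a regulator of microtubules, held 70 UMIs in fl/fl, of which 95.7% were in the 4 barcodes, and 3 in cKO. The same 4 barcodes had 6 to 8 rule genes and 0 or 1 UMI of the 6 microglial markers.

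By the number of genes found and by Isg15, interferon-response genes stood out in 1 barcode of each library. Of 40 genes, the leading fl/fl barcode held UMIs of 31 and the leading cKO barcode of 32, where the medians were 12 and 12.5. Isg15, a ubiquitin-like protein that interferon induces, held 15 UMIs in the former and 12 in the latter. That was 68.2% of the 22 Isg15 UMIs of fl/fl and 60.0% of the 20 of cKO. The summed level of the list per barcode had a median of 11748 CPM (fl/fl) and 12028 CPM (cKO). The leading barcodes held 36777 and 30914 CPM and the next 28304 and 19528 CPM, so the sum set the fl/fl one less apart.

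The genotypes were compared gene by gene on log2((cKO CPM + 1)/(fl/fl CPM + 1)), over genes with at least 20 UMIs in both libraries together. A gene was called when it differed at least 2-fold and its 95% exact counting interval excluded equality; reads of 2 libraries compare those libraries and not the genotypes. In low-microglial members 71 of 3295 genes were called higher in cKO (2.15%) and 68 lower (2.06%), with a median of -0.01. In all members 126 of 6239 were called higher (2.02%) and 125 lower (2.00%), with a median of -0.04. Genes named from the low-microglial comparison were chosen after their values were seen.

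**Figure D4:**
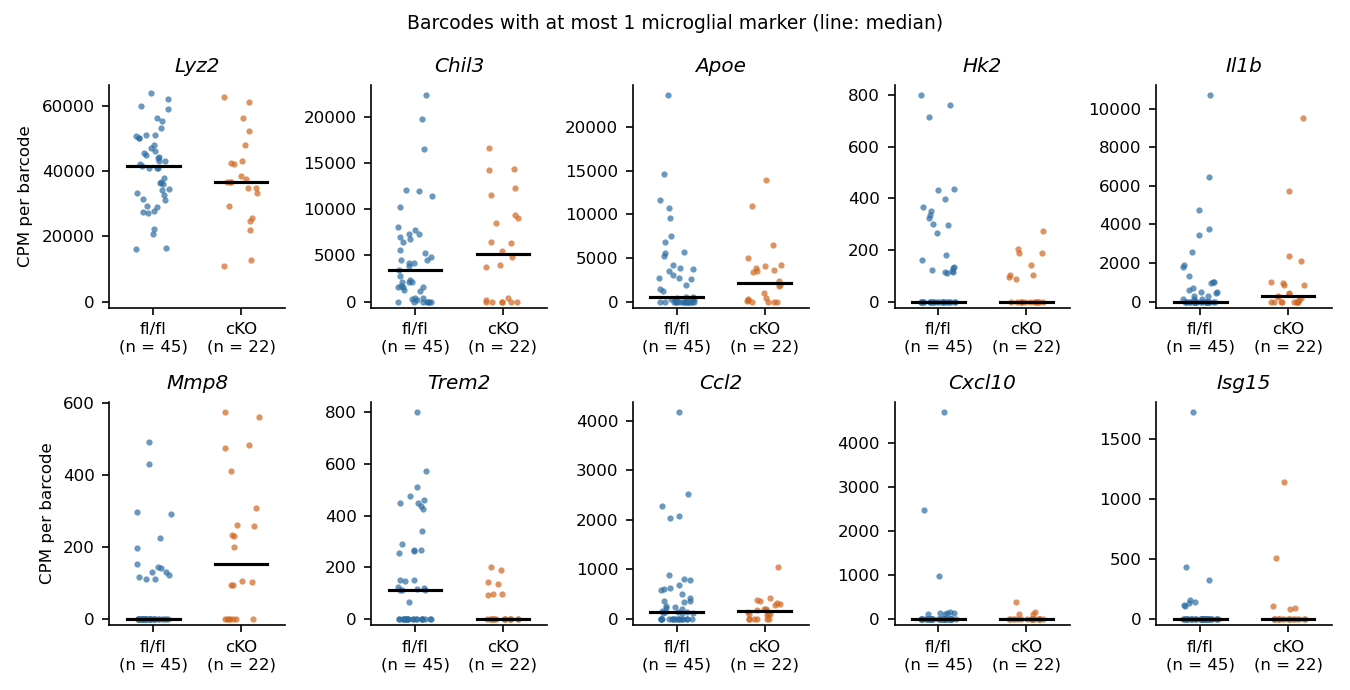
CPM of 10 genes in each low-microglial member (points; fl/fl n = 45, cKO n = 22; black line, median). The points of fl/fl and cKO overlap for every gene; for Ccl2 the medians are close and the highest barcodes are fl/fl, and for Cxcl10 and Isg15 most points are at 0.

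Hexokinase 2 (Hk2, chr6:82725025-82774454), the enzyme deleted in cKO, phosphorylates glucose at the entry of glycolysis. It held 48 UMIs in 22 of 45 fl/fl low-microglial members, 157 CPM (116 to 208), and 13 UMIs in 9 of 22 cKO ones, 71.9 CPM (38.3 to 123). The ratio was 2.17-fold lower in cKO, a log2 ratio of -1.11 (-2.13 to -0.22), and -1.11 (-2.23 to -0.14) without the barcode richest in it in each library. In all members it was 150 and 91.9 CPM, a log2 ratio of -0.71. In microglia it was 165 and 43.9 CPM. A 3′ tag outside the floxed part would still be counted, so these levels do not measure the deletion. Over barcodes thinned to 3000 UMIs, Hk2 was found in 13 of 42 and 3 of 20 low-microglial members, 31.0% (17.6% to 47.1%) and 15% (3.21% to 37.9%). Unthinned, it was found in 48.9% and 40.9% of them. Hk1 held 7 and 6 UMIs and Hk3 14 and 6. Among 15 measured glycolysis and transporter genes the median was -0.03, and Hk2 alone was called lower, where 2.06% of all genes were. None was called higher. Of the 15, 6 were higher and 9 lower, where 48.9% of all genes were higher. Ldha, lactate dehydrogenase A, stood at 186 and 326 CPM, a log2 ratio of 0.81 (0.26 to 1.36).

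Cx3cr1 (chr9:119901616-120069879), the fractalkine receptor, whose locus carries CreER in cKO, stood at 160 and 93.98 CPM in low-microglial members. Its log2 ratio was -0.76 (-1.66 to 0.05) and was not called. It stood at 1292 and 673 CPM in microglia. In all members it stood at 736 and 359 CPM, sums that include the members with 2 or more microglial markers. The interval of the low-microglial members includes both equality and the value of microglia.

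The interferon response list depended on which members were taken. In all members 31 of 32 measured genes were higher in cKO, where 46.0% of all genes were, and the median was 0.80. Of the 32, 12 were called higher, where 2.02% of all genes were. In low-microglial members 14 of 25 were higher, where 48.9% of all genes were, and the median was 0.10. Of the 25, 0 were called higher and 1 lower, where 2.15% and 2.06% of all genes were. For the same 25 genes in microglia 23 were higher and the median was 0.92. Bst2, an antiviral tether, stood at 189 and 310 CPM in low-microglial members, a log2 ratio of 0.71 (0.15 to 1.26), and at 223 and 651 CPM in all. Ifi27l2a stood at 1852 and 2560 CPM in low-microglial members, a log2 ratio of 0.47 (0.29 to 0.65). Ifitm2 went the other way, with 1725 and 1376 CPM, a log2 ratio of -0.33 (-0.55 to -0.11). The 6 cKO members with 2 or more microglial markers held a median of 31.5 of the 40 genes, and the 22 such fl/fl members 14. Whether monocytes and microglia differ in this was not tested.

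Of class I presentation genes in low-microglial members, 10 of 11 had the higher value in cKO, where 48.9% of all genes did, with a median of 0.26 and 0 called. In all members 13 of 13 did, where 46.0% of all genes did, with a median of 0.45 and 2 called higher, where 2.02% of all genes were. H2-T23, a nonclassical class I gene, stood at 180 and 310 CPM, a log2 ratio of 0.78 (0.22 to 1.35). Tapbp, which loads peptides, stood at 144 and 243 CPM, a log2 ratio of 0.75 (0.12 to 1.40). B2m, the light chain, stood at 1529 and 1736 CPM, a log2 ratio of 0.18 (-0.03 to 0.39).

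The chemokine median changed sign between all members and low-microglial members, and the cause was not tested. In all members 10 of 12 were higher in cKO, where 46.0% of all genes were, and the median was 1.07. Of the 12, 7 were called higher, where 2.02% of all genes were. In low-microglial members 2 of 7 were higher, where 48.9% of all genes were, and the median was -0.56. Of the 7, 2 were called lower, where 2.06% of all genes were. Ccl2, the ligand of CCR2, stood at 858 and 2335 CPM in all members, and 1 cKO barcode held 57.4% of its cKO UMIs. In low-microglial members it stood at 477 and 221 CPM, a log2 ratio of -1.11 (-1.65 to -0.60). Its median per barcode was 144 and 162 CPM, and the highest barcodes were 4179 and 1038 CPM. The difference of the sums thus lay in the upper tail of fl/fl. Cxcl10, an interferon-induced chemokine, held 63 UMIs in 9 of 45 fl/fl barcodes, 50.8% of them in 1, and 8 UMIs in 4 of 22 cKO barcodes. Its log2 ratio was -2.19 (-3.49 to -1.15), and -2.09 (-4.10 to -0.64) without the richest barcode of each library. It rests on 2 fl/fl barcodes with 32 and 22 UMIs: the other 43 held 9 UMIs together. In all members Cxcl10 stood at 349 and 622 CPM, a log2 ratio of 0.83 (0.57 to 1.09). Ccl9 stood at 960 and 641 CPM, a log2 ratio of -0.58 (-0.91 to -0.27). Cxcl2 stood at 2332 and 2841 CPM, and 1 cKO barcode held 33.9% of its UMIs.

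**Figure D5:**
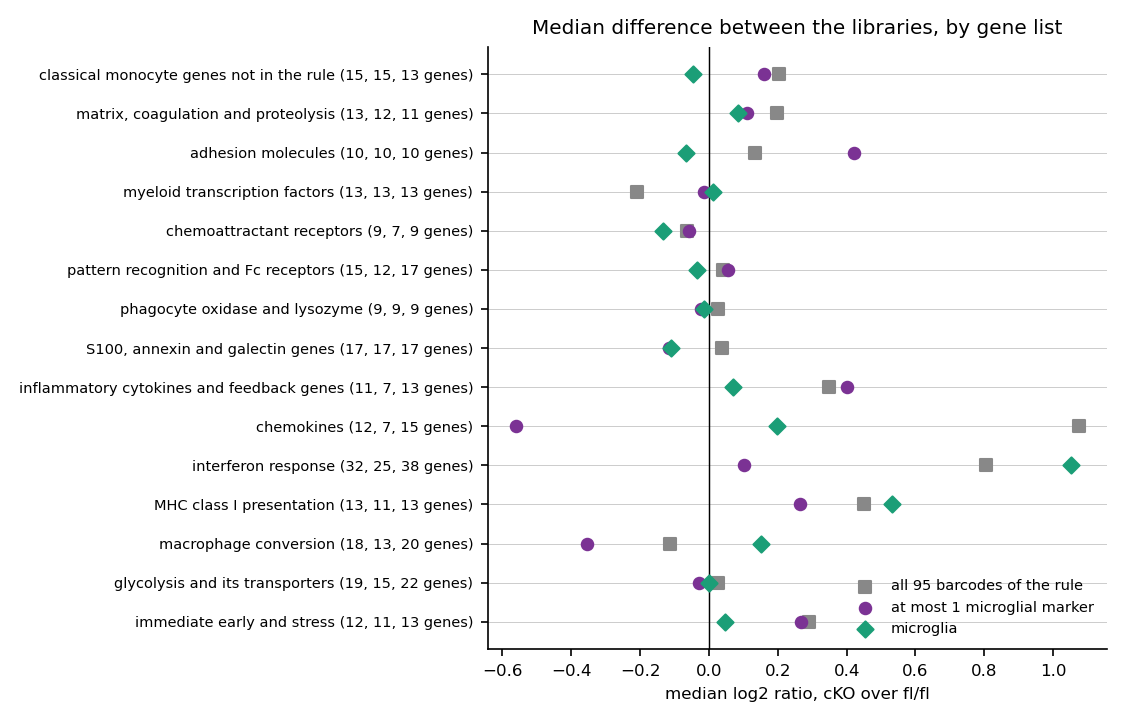
Median log2 ratio of cKO over fl/fl for each gene list, for all 95 members (grey squares), the 67 low-microglial members (purple circles) and microglia (green diamonds), with the number of genes measured in each after the list's name. The grey squares of chemokines (1.07) and interferon response (0.80) lie far from the purple circles (-0.56 and 0.10).

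Adhesion genes were not called. In low-microglial members 7 of 10 were higher in cKO, where 48.9% of all genes were, with a median of 0.42 and 0 called. In all members 5 of 10 were higher, where 46.0% of all genes were, with a median of 0.13 and 0 called. Over the same genes microglia had a median of -0.07 with 5 higher. Itga4 had a log2 ratio of 0.82 (0.30 to 1.35) and Itgam, the CD11b chain used in the sort, one of 0.83 (0.30 to 1.36), from 199 and 354 CPM. Mmp8, a collagenase of neutrophils and monocytes, was called higher: 25 UMIs in 15 of 45 fl/fl barcodes and 43 UMIs in 15 of 22 cKO barcodes gave 81.7 and 238 CPM, a log2 ratio of 1.53 (0.80 to 2.31). Neutrophils held Mmp8 at 716 and 714 CPM. S100a9, a defining neutrophil gene, held 9 UMIs (fl/fl) and 1 UMI (cKO) in low-microglial members, but the rule limits it. Its low level was thus fixed by the choice of members, and whether neutrophil RNA adds to Mmp8 was not tested. Without the richest barcode of each library the Mmp8 ratio was 1.61 (0.81 to 2.47), and in all members it was 1.11 (0.49 to 1.76).

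Inflammatory genes had a median of 0.40 in 7 measured in low-microglial members. Of the 7, 6 were higher, where 48.9% of all genes were, and 1 was called higher, where 2.15% were. In all members the median was 0.35 in 11. Of the 11, 7 were higher, where 46.0% of all genes were, and 1 was called higher, where 2.02% were. Ptgs2, which makes prostaglandin precursors, stood at 108 and 238 CPM, a log2 ratio of 1.13 (0.45 to 1.84), and at 0.75 (-0.05 to 1.56) without the richest barcode of each library, which ends the call. Il1b, interleukin 1 beta, stood at 869 and 1189 CPM, but 1 of 22 cKO barcodes held 43.7% of its UMIs, and without the richest ones the log2 ratio was -0.07 (-0.40 to 0.26). Zfp36, which destabilises cytokine mRNAs, was found in 42 of 45 and 22 of 22 barcodes at 568 and 1012 CPM, a log2 ratio of 0.83 (0.52 to 1.14). Among 11 measured immediate early and stress genes the median was 0.27, with 6 higher and 5 lower, where 48.9% of all genes were higher. In all members the median was 0.29 over 12, with 9 higher, where 46.0% of all genes were, and 0 called. Jun was called lower, at 278 and 122 CPM with a log2 ratio of -1.18 (-1.94 to -0.50), while Junb stood at 2313 and 3018 CPM, a log2 ratio of 0.38 (0.22 to 0.55). In all members the Jun ratio was 0.52 (0.30 to 0.75).

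Genes of conversion to macrophages had a median of -0.35 over 13 measured in low-microglial members. Of the 13, 4 were higher and 9 lower, where 48.9% of all genes were higher. In all members the median was -0.11 over 18. Of the 18, 6 were higher, where 46.0% of all genes were, and 3 were called higher, where 2.02% were. The same 13 genes in microglia had a median of 0.21 with 10 higher. Trem2, a lipid receptor of macrophages and microglia, held 53 UMIs in 25 of 45 fl/fl barcodes and 8 UMIs in 7 of 22 cKO barcodes. That is 173 and 44.2 CPM, a log2 ratio of -1.94 (-3.25 to -0.89), and it was called lower. In all members the Trem2 ratio was -0.22 (-0.51 to 0.05). Lgmn, a lysosomal protease, stood at 180 and 93.98 CPM, a log2 ratio of -0.93 (-1.81 to -0.13). Cd9 was called higher at 39.2 and 116 CPM, yet 1 cKO barcode held 90.5% of its UMIs, and without the richest ones the log2 ratio was -1.31 (-4.63 to 0.89).

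The classical programme itself differed little between the libraries. The 15 classical genes outside the rule had a median of 0.16 in low-microglial members, with 0 called. Of the 15, 11 were higher and 4 lower, where 48.9% of all genes were higher. In all members the median was 0.20, with 1 of 15 called higher, where 2.02% of all genes were. Fn1 had a log2 ratio of 0.11 (-0.12 to 0.34) and Hp one of 0.05 (-0.21 to 0.29). Mgst1 was lower at 758 and 531 CPM, a log2 ratio of -0.51 (-0.87 to -0.16). The 8 rule genes had a median of 0.08 with 0 called, from -0.22 for Ifitm6 to 0.56 for Vcan. The oxidase and lysozyme list, 9 genes, had a median of -0.02 with 0 called, from -0.34 for Ncf4 to 0.19 for Ncf1.

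The mitochondrial marker pair moved with the libraries. Among low-microglial members mt-Nd3 alone was found in 8 of 45 fl/fl barcodes, Gm28438 alone in 17, both in 0 and neither in 20. In cKO mt-Nd3 was found in 0 of 22 and Gm28438 in 15. In microglia 1186 of 2386 fl/fl and 3 of 1808 cKO barcodes had mt-Nd3 alone. Restricted to the 17 and 15 low-microglial members with Gm28438 and no mt-Nd3, the log2 ratio was -0.92 (-2.20 to 0.24) for Hk2, -2.54 (-5.00 to -0.82) for Trem2 and -3.10 (-5.09 to -1.65) for Cxcl10. It was 1.90 (0.82 to 3.16) for Mmp8, 1.07 (0.23 to 1.97) for Itga4 and 1.10 (0.68 to 1.54) for Zfp36. For Ccl2 it was -0.15 (-0.93 to 0.62) and for Jun -0.30 (-1.48 to 0.84), and for Cd9 -0.96 (-4.47 to 1.80). The calls of Hk2, Ccl2, Jun and Cd9 were thus not kept in this subset, nor was that of Birc5, which held 1 and 0 UMIs there. What the pair stands for was not tested.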

How the data were processed

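Gene counts per barcode of 2 libraries (10x 3′ v3) were deposited by the authors as sparse matrices of whole UMI counts, not normalized; per the submitters' processing notes, bcl2fastq and Cell Ranger 3.1.0 were used with GRCm38. All 55450 gene identifiers occur in GENCODE M21, from which coordinates were taken. The matrices held 3089 fl/fl and 2607 cKO barcodes with 37476201 and 32896996 UMIs. Members were found by the stated rule; doublets were not removed. Microglia are kept barcodes below both limits with UMIs of at least 4 of 6 microglial genes (P2ry12, Tmem119, Siglech, Fcrls, Gpr34 and 1 that is not reported here) and of at most 1 rule gene. Neutrophils are kept barcodes at or above the S100 limit, and class II cells those below it and at or above the class II limit. Counts were summed per class and library and scaled to CPM, with exact Poisson, Clopper-Pearson and conditional binomial 95% intervals (scipy 1.17.1, numpy 2.4.6, pandas 2.3.3). The comparison was tested on simulated data. Alternatives included edgeR 4.0.16 TMM scaling. UMIs of 1 cell share a source, so intervals are too narrow for differences among cells.

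Named genes are the rule genes, the hexokinases and Cx3cr1, up to 4 highest and 4 widest of each list, the 15 highest and 5 lowest over microglia, and the 12 widest each way between genotypes; others were chosen after their values were seen. The members and gene lists were chosen with earlier results of these data known. Several lists were too low in these cells to measure and are not reported.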

Additional observations from a re-analysis of the deposited data

How the results depend on the processing

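No paired analysis was possible because each genotype is 1 library, and for the same reason no library could be left out. Alternatives that used microglial RNA or the marker pair together with it were chosen after the data were seen, except leaving out members with 2 or more microglial markers. The share of members was 3.11% in fl/fl and 2.35% in cKO with at least 3 rule genes, and 1.59% in fl/fl without members with 2 or more microglial markers. Genes called higher in cKO numbered 126, but 71 without members with 2 or more microglial markers, 58 without members with any, 57 among low-microglial members with Gm28438 and no mt-Nd3, and 45 with at least 50 UMIs. Genes called lower numbered 125, and in the same order 68, 44, 23 and 53; fewer genes were tested under each. The interferon median of 0.80 became 0.10 without members with 2 or more markers, 0.014 without any, 0.36 with the marker pair, 0.39 without members above 20000 UMIs and 0.28 as a mean of per-cell CPM. The macrophage conversion median of -0.11 became -0.51 without members above 20000 UMIs, -0.47 without any microglial marker and -0.54 with the marker pair. Reversed values were as follows. Without members with 2 or more markers the log2 ratio was -0.56 for chemokines, -1.11 for Ccl2, -0.088 for Ccl4, 0.27 for the 1 microglial marker measured, 0.17 for Kcnq1ot1, 0.039 for Smap2 and 0.057 for Cd33. Without members above 20000 UMIs it was -0.37 for chemokines, -0.69 for Ccl2, -2.05 for Ccl4, -2.06 for Hist1h2bc and 0.27 for Kcnq1ot1. Without any microglial marker it was -0.63 for chemokines, -1.51 for Ccl2, -0.23 for Irf7, -0.33 for Lgals3bp, 0.034 for Smap2, -0.089 for Ly6c2, -0.11 for Ms4a4c and 0.28 for microglial markers. With the marker pair it was -0.15 for chemokines, -0.15 for Ccl2, 0.22 for microglial markers, 0.13 for Smap2, 0.42 for Atf3, -0.014 for Ly6c2 and -0.036 for Chil3. With at least 5 rule genes it was -0.062 for nonclassical genes, -0.15 for Edn1 and -0.13 for Hist1h2bc, and as a mean of per-cell CPM -0.070 for Hist1h2bc. The cause of each was not tested. TMM scaling shifted all ratios by -0.01. Depth is 306129 and 180894 UMIs in low-microglial members.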

Other observations

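Genes called between the genotypes in low-microglial members that belong to no list, chosen after their values were seen, included Irs2, an adaptor of insulin signalling, with 13 UMIs in fl/fl and 32 in cKO (42.5 and 177 CPM, log2 ratio 2.03, 1.09 to 3.11). Nr4a2, a nuclear receptor of the immediate early class, stood at 369 and 746 CPM (log2 ratio 1.01, 0.64 to 1.39), and Trem1, an activating receptor of monocytes and neutrophils, at 65.3 and 171 CPM (1.38, 0.53 to 2.28). Tubb5 and Tuba1b, tubulin genes, stood lower in cKO at 258 and 55.3 CPM and at 235 and 60.8 CPM, and 65.8% and 59.7% of their fl/fl UMIs were in the 4 barcodes with 5 or more G2/M genes. Among low-microglial members with Gm28438 and no mt-Nd3, Nr4a2 (0.55), Tubb5 (-0.65) and Tuba1b (-0.77) were not called.

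In all members, the genes with the widest ratio towards cKO lay in few barcodes. Ms4a7, a gene of border macrophages, stood at 9.71 and 203 CPM, and 1 cKO barcode held 86.7% of its cKO UMIs. Spp1, Ccl7 and Edn1 were likewise held to 83.5%, 90.7% and 77.5% by 1 cKO barcode each, and all 4 genes had 0 UMIs in the 22 low-microglial cKO members. Of endothelial markers, 4 of 5 measured in all members were called higher in cKO, where 2.02% of all genes were. Their median was 2.21, and the 1 measured in low-microglial members had a log2 ratio of -0.029.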
